A study of Mus musculus with 24 samples.

Results

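In alveolar-like macrophages grown from mouse bone marrow, 1324 regions of open chromatin lost most of their accessibility when the aryl hydrocarbon receptor (AhR) was missing, whether or not the cells had met lipopolysaccharide (LPS). They were chosen from 176815 consensus peaks on chromosomes 1 to 19, of 184158 peaks in all, so that 0.749% of the peaks considered qualified. A peak qualified when its mean level in wildtype (WT) cells was at least 3 times the mean in AhR-deficient cells both unstimulated and with LPS, and when the WT mean reached 1 CPM (the count of a peak per 1000000 counts of its library) in both. Chromosome 12 from 15.5 to 55.5 Mb was left out because it surrounds the Ahr gene itself. The difference between genotypes therefore chose these peaks, and their levels in the 2 genotypes are given as a description, without a test.

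Accessibility had been measured by ATAC-seq, which lets a transposase insert adapters wherever DNA is exposed, in 24 libraries of bone marrow-derived macrophages (BMDMs). They formed 4 groups of 6 libraries: WT unstimulated, AhR-KO unstimulated, WT with LPS and AhR-KO with LPS. All marrow was cultured with GM-CSF (10 ng/ml), TGF-ß (2 ng/ml) and 10% serum, and LPS (97 EU/ml) was given on day 6 for 24 h. The labels attach LPS and a closing 10 min with the calcium ionophore A23187 (5 µM) to every library and do not set the unstimulated cultures apart, so whether these also received the ionophore is not stated for them. WT mice were C57/B6/J, and AhR-KO mice were AhR KO/KO of the strain B6.129-Ahrtm1Bra/J, which lack AhR in all cells from the germline, so that the marrow had also developed without the receptor. Each group came from 6 animals in 1 experiment, and p-values measure the spread between those.

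AhR is a transcription factor of the bHLH-PAS family that waits in the cytosol with HSP90 and other chaperones until a small ligand binds, and then pairs with ARNT in the nucleus and binds a short core of bases, GCGTG. Its best known targets are the detoxifying cytochromes of the Cyp1 family and its own feedback inhibitors, the AhR repressor AHRR and the ADP-ribosyltransferase TIPARP. In myeloid cells it is known to act on cytokine production and on tryptophan metabolism, and open chromatin away from promoters often marks enhancers that lineage factors such as PU.1 and RUNX1 hold open.

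Library totals ran from 8.54 M counts (M for 1000000) in WT unstimulated replicate 5 to 34.6 M. WT unstimulated replicate 5 and WT LPS replicate 3 stood apart in the AhR-dependent peaks: each had the lowest level of its group at most of them, 1135 peaks (85.7%) for the former and 1114 (84.1%) for the latter. The share of counts in peaks over transcription start sites (TSSs), a sign of library quality, lay between 29.7% and 34.6% in every library. No consensus peak covered the exon removed in the mutant, so the peaks do not check the deletion directly. The opposite rule, with AhR-KO at least 3 times WT in both treatments, found 80 peaks.

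Of the 20 AhR-dependent peaks at a promoter, the one at Ahrr, the gene of the AhR repressor, is the best known direct AhR target, and the one at Syt9 (synaptotagmin, a calcium sensor of vesicle release) held the most cores among the peaks named here, 4. The next 4 were taken from the peaks with the strongest loss or the highest WT level, and together the 6 windows of 120 bases show how the core lies in promoters and in distal peaks. All are the plus strand of the GRCm38 (mm10) reference from RefSeq, 5′ to 3′, with each AhR core, read as GCGTG or on the other strand as CACGC, in capitals.
Ahrr (chr13:74292336-74292455): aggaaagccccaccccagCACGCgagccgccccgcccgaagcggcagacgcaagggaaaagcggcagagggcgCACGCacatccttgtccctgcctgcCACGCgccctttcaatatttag
Syt9 (chr7:107370423-107370542): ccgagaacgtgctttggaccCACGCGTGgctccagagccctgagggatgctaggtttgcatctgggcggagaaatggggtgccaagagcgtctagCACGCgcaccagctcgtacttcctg
Rab11fip2 (chr19:59835265-59835384): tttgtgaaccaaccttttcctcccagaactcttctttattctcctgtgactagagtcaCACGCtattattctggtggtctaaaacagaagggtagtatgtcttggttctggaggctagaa
Mtfr1 (chr3:19214623-19214742): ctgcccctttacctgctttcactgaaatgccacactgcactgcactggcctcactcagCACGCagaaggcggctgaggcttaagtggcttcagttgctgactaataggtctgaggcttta
Pole (chr5:110295358-110295477): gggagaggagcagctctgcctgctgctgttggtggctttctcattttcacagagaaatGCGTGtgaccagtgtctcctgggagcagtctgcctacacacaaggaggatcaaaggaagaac
Plscr2 (chr9:92273508-92273627): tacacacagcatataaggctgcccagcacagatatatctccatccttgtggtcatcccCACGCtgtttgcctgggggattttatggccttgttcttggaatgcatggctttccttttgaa
The Ahrr window held 3 cores and the Syt9 window 3, of which an overlapping pair reads as the palindrome of the first capitals. The other 4 windows held 1 core each.

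A different set of letters, TGTGGTTT, bound by RUNX factors and read as AAACCACA on the other strand, was found more often in these peaks than among all peaks (values below). It is shown in capitals in a peak in an intron of Tspan8, a tetraspanin membrane protein, in a peak in an intron of Pole, the catalytic subunit of DNA polymerase epsilon, and in a peak in an intron of Kit, the receptor for stem cell factor. These windows were picked after their values had been seen.
Tspan8 (chr10:115824215-115824334): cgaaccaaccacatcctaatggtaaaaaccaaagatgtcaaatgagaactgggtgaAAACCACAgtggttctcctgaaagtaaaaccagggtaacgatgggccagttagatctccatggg
Pole (chr5:110295153-110295272): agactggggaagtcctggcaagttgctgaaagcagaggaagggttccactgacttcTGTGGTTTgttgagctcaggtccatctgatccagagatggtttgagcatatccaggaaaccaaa
Kit (chr5:75607313-75607432): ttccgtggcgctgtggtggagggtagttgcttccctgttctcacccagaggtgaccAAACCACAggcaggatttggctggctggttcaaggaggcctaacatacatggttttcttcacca
The Pole peak held both an AhR core and a RUNX motif. In the central 300 bases, 21 AhR-dependent peaks held both.

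The peak with the strongest mean loss on log2(CPM + 0.1), the scale used for ranking, held neither. Plain ratios of WT to AhR-KO, without the added 0.1, were larger at some other peaks (values below). The peak ranked first lies in an intron of Uroc1 (urocanate hydratase, an enzyme of histidine breakdown). Its central 200 bases, without a match to either motif, read as follows.
Uroc1 (chr6:90334078-90334277): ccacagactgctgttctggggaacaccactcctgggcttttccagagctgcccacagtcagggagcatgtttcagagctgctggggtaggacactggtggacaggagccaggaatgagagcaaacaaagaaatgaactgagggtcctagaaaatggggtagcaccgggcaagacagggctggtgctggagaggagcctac

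Across the AhR-dependent peaks, the median WT level was 3.22 CPM unstimulated and 2.52 CPM with LPS, against 0.550 and 0.492 CPM in AhR-deficient BMDMs. The median ratio of WT to AhR-KO was 5.12 unstimulated and 4.70 with LPS, and the largest was 29.7 and 27.6. In a bulk library, fewer cells of a type and less accessibility per cell cannot be told apart, and this holds for every level given here. The 6 libraries of each genotype did not overlap at 1247 peaks unstimulated and 1257 with LPS, AhR-KO being the lower, where 11.1% and 9.48% of all peaks did so. Since the rule chose peaks by this contrast, nothing is read from those counts.

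The ratios of WT to AhR-KO were graded. WT exceeded AhR-KO at least 4-fold in both treatments at 675 peaks, at least 5-fold at 388 and at least 10-fold at 52. Every AhR-dependent peak held some counts in AhR-deficient cells, the lowest count summed over 6 AhR-KO libraries being 10. No background level was estimated, so whether accessibility remained at the lowest of them is not shown. In the lists of broad peaks called library by library, 944 were not called in any of the 12 AhR-KO libraries. In all 12 WT libraries 337 were called, and 107 were both. The rule chose peaks low in AhR-KO and no share over all peaks stands beside these counts, so nothing is read from them. The ratio was larger unstimulated at 760 peaks and larger with LPS at 564, and the 2 ratios differed by at least 2 times at 150 and 75 of these.

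**Figure D1:**
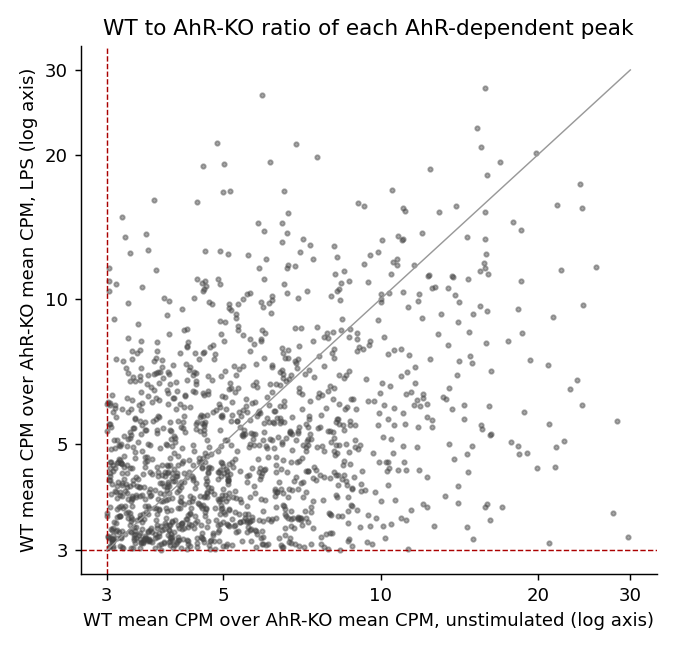
Ratio of the mean WT level to the mean AhR-KO level at the AhR-dependent peaks, unstimulated against LPS, on log axes. Each point is a peak, all lie at or above 3 on both axes because the rule required it, and the medians were 5.12 and 4.70.

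The ratio of 3 cut through a continuous range. Just inside were peaks near Als2cl (from 110889651) and Tnfrsf18, with smaller ratios of 3.0002 and 3.0006, and just outside peaks near Ogfrl1 and Rsu1, at 2.9995 and 2.9987. At the level limit, peaks near Bend7 and Habp2 stood at 1.00001 and 1.0029 CPM inside, and peaks near Dgkg and Zmym2 at 0.998 and 0.997 CPM outside. A ratio under 3.3 in at least 1 treatment was found at 259 of the AhR-dependent peaks, and 870 further peaks met the ratio but not the level.

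In WT, libraries of a group differed from each other at these peaks more than at others. The median over AhR-dependent peaks was 1.76 CPM in the lowest WT unstimulated library (replicate 5) and 4.12 CPM in the highest (replicate 1), and 1.45 to 3.38 CPM in WT with LPS. AhR-KO libraries lay between 0.496 and 0.617 CPM unstimulated and between 0.421 and 0.626 CPM with LPS, and every WT library had a higher median than every AhR-KO library. The median coefficient of variation over the 6 libraries was 30.2% in WT unstimulated and 34.1% in WT with LPS. It was 14.2% and 13.8% for the 101481 peaks at or above 1 CPM in WT, which were not matched further on level. In AhR-KO, where the AhR-dependent peaks held few counts, it was 29.7% unstimulated and 34.6% with LPS. The same 101481 peaks stood at 12.4% and 13.4% there. The rule chose peaks low in AhR-KO, and few counts alone raise this measure, so no excess is read from the AhR-KO values. When WT unstimulated replicate 5 was left out of the rule, 1431 peaks were found, and 1320 of the 1324 were among them. Without WT LPS replicate 3 the rule found 1453, with 1317 shared.

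**Figure D2:**
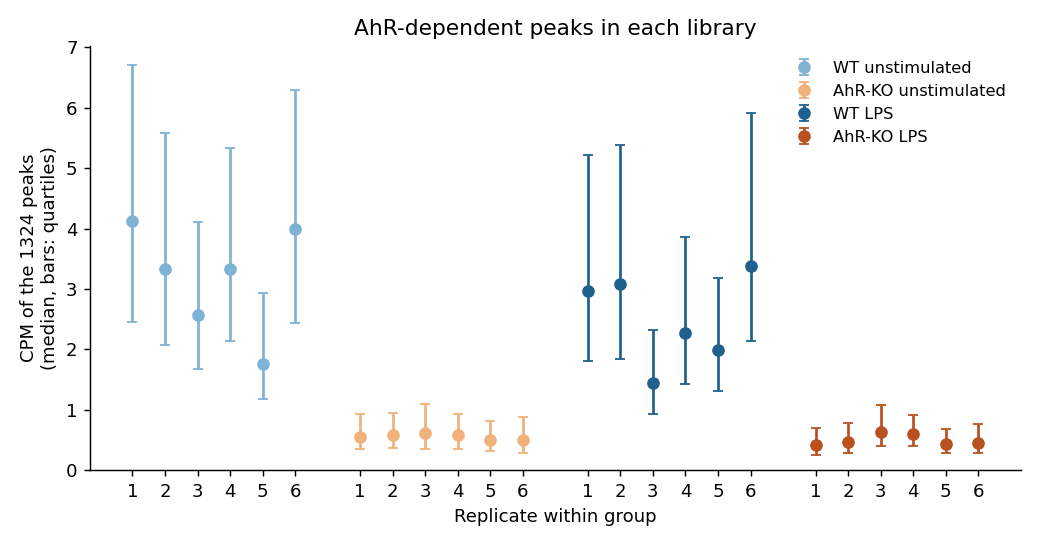
Level of the AhR-dependent peaks in each of the 24 libraries, in CPM on a linear axis from 0, by group and replicate. Points are medians over the peaks and bars quartiles, and WT medians ran from 1.45 to 4.12 CPM and AhR-KO medians from 0.421 to 0.626 CPM, with no overlap between genotypes.

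None of the 12 peaks with the strongest mean loss on log2(CPM + 0.1) covered a start site, 6 lying in introns and 6 between genes. The Uroc1 peak (chr6:90333579-90334778, whose centre is printed above, 0.889 kb from the Uroc1 TSS) ranged from 6.68 to 27.5 CPM in WT unstimulated, with a median of 19.5, and from 0.792 to 1.85 in AhR-KO, with a median of 1.07. With LPS it ranged from 7.51 to 22.9 CPM in WT (median 19.3) and from 0.492 to 1.30 in AhR-KO (median 0.663). The groups did not overlap in either treatment, and the WT mean was 15.3 times the AhR-KO mean unstimulated and 22.7 times with LPS. It was called as a peak in 12 WT libraries and 1 AhR-KO library.

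The peak nearest to Emp1, a membrane protein of epithelia, lay 139 kb from its TSS and showed a WT range of 3.87 to 12.7 CPM unstimulated (median 9.65) against 0.211 to 0.500 (median 0.394) in AhR-KO. With LPS its WT libraries lay between 2.14 and 6.05 CPM (median 4.29) and its AhR-KO libraries between 0.0807 and 0.358 (median 0.280). AhR-KO was near the floor of the assay in both treatments, and the ratios were 24.0 and 17.4. A peak near Afdn, the junction adaptor afadin, had ratios of 19.8 and 20.2, and the Tspan8 peak 16.9 and 19.3. At the Tspan8 peak, the lowest WT library stood at 2.93 CPM unstimulated and 2.46 with LPS, and the highest AhR-KO library at 0.398 and 0.626.

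Peaks on chromosome 18 near Ss18, a subunit of a chromatin remodelling complex, and near Grxcr2 belonged to the same 12, with ratios of 21.7 and 15.7 for the former and 18.5 and 13.9 for the latter. The others were an intron of the RNA methyltransferase gene Nsun2 (ratios 17.9 and 14.5), a region 108 kb from Rab11fip2, a partner of RAB11 in membrane recycling (15.5 and 20.7), a region near Srbd1 (18.6 and 10.9), an intron of Mtfr1, a regulator of mitochondrial fission (11.03 and 15.5), an intron of the potassium channel gene Kcnc4 (15.8 and 27.6), and the Pole intron (12.9 and 15.2). In the Mtfr1 peak, whose core is printed above, WT ranged from 6.44 to 17.01 CPM unstimulated and from 6.36 to 21.6 with LPS, and AhR-KO from 0.925 to 1.33 and from 0.643 to 1.12. In the Pole peak, the WT range was 3.28 to 8.57 and 3.21 to 9.93 CPM, and the AhR-KO range 0.389 to 0.812 and 0.246 to 0.724. Of the 12, the Grxcr2, Rab11fip2, Mtfr1 and Pole peaks held an AhR core somewhere in the peak, and the Tspan8, Ss18 and Pole peaks held a RUNX motif in their central 300 bases.

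The 8 peaks most accessible in WT included the Uroc1 peak, and the other 7 had smaller ratios, from 3.35 to 8.34 unstimulated and from 3.17 to 4.96 with LPS. Near Tent5c, a poly(A) polymerase gene, the WT range was 18.6 to 31.6 CPM unstimulated (median 23.4) and 14.1 to 27.03 with LPS (median 22.3), against 4.42 to 6.83 and 5.59 to 8.05 in AhR-KO. This peak was called in all 12 AhR-KO libraries and in all 12 WT libraries. In an intron of Gas2 the WT mean was 23.4 CPM ± 8.53 (SD, n = 6) unstimulated and the AhR-KO mean 2.81 ± 1.02, and with LPS they were 20.8 ± 7.34 and 4.19 ± 0.857. A peak in an intron of Ror1, a Wnt5a receptor, stood at 21.6 ± 6.44 against 6.45 ± 1.497 CPM unstimulated and at 16.03 ± 5.47 against 3.60 ± 1.29 with LPS. Peaks 195 kb from Cxcr4, the receptor for CXCL12, and 107 kb from Nabp1, a single-stranded DNA binding protein, had ratios of 3.41 and 3.17 and of 3.40 and 3.29.

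Start sites were rare, with 20 AhR-dependent peaks covering a protein-coding TSS and 38 lying within 1000 bases of 1. At the Ahrr promoter (chr13:74291782-74292673), WT unstimulated libraries ranged from 9.59 to 13.4 CPM with a median of 10.6, and AhR-KO libraries from 2.53 to 4.14 with a median of 3.24. With LPS the WT libraries ranged from 10.5 to 12.4 CPM (median 11.2) and the AhR-KO libraries from 2.00 to 2.46 (median 2.35). The promoter was still called as a peak in all 12 AhR-KO libraries. Inside the gene, an intronic peak from 74288783 stood at 2.80 CPM ± 0.458 in WT and 0.478 ± 0.107 in AhR-KO unstimulated (SD, n = 6), and at 6.69 ± 1.51 and 0.575 ± 0.129 with LPS. A narrower intronic peak from 74287293 stood at 1.63 ± 0.365 against 0.316 ± 0.0424 CPM unstimulated and 1.67 ± 0.285 against 0.249 ± 0.0568 with LPS. Ahrr was the only gene of the 15 on a list of AhR targets (Cyp1a1, Cyp1a2, Cyp1b1, Tiparp, Nqo1 and others) with an AhR-dependent peak. Its 3 peaks were among 198 tested peaks of that list, where 0.749% of all peaks considered were AhR-dependent.

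Other start sites belonged to genes of different roles. The Syt9 promoter stood at 8.78 CPM ± 1.62 in WT and 2.45 ± 0.214 in AhR-KO unstimulated, and at 6.85 ± 2.50 and 1.46 ± 0.544 with LPS. The promoter of Clnk, an adaptor of immunoreceptor signalling, ranged from 3.63 to 12.6 CPM in WT unstimulated and from 0.475 to 0.917 in AhR-KO, and was called in none of the 12 AhR-KO libraries. The promoter of Itgb2l, an integrin beta 2-like gene, had ratios of 5.71 and 5.11, that of the olfactory receptor gene Olfr420 3.95 and 3.95, and that of Synpo2, an actin-binding protein, 3.12 and 3.42. A peak in Hivep3, a zinc finger transcription factor gene, had ratios of 9.03 and 3.65, and a peak in the sulfotransferase gene Gal3st2c 5.55 and 10.2. The peak of the phospholipid scramblase gene Plscr2, 1.53 kb from its TSS by its centre, ranged from 6.09 to 9.28 CPM in WT unstimulated and from 21.96 to 32.4 with LPS, and from 1.67 to 2.59 and from 5.93 to 11.8 in AhR-KO.

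Lists of genes around AhR, lipid mediators, alveolar macrophage identity, LPS-induced genes, tryptophan and retinoid metabolism and markers of cell types held 13 of the AhR-dependent peaks. Besides the 3 at Ahrr, Hpgds, the synthase of prostaglandin D2, had 2. The first lay 13.95 kb from the Hpgds TSS (from 65158646) and ranged from 3.16 to 8.38 CPM over WT unstimulated libraries (median 6.73), whereas the highest AhR-KO library stood at 0.925. With LPS its WT libraries ranged from 1.91 to 3.21 CPM and its AhR-KO libraries from 0.322 to 0.718. The second (from 65190379, 45.8 kb away) had ratios of 5.10 and 5.08. A peak in an intron of Kynu, the kynureninase of tryptophan breakdown, stood at 10.0 CPM ± 3.04 against 1.58 ± 0.583 unstimulated and 13.4 ± 5.36 against 2.98 ± 1.35 with LPS. Its nearest protein-coding TSS was that of Arhgap15.

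Kit had 2 peaks, 1 of them the intronic peak whose RUNX motif is printed above, with ratios of 9.89 and 5.47, and 1 lying 98.4 kb from its TSS, with ratios of 5.97 and 9.61. A peak in an intron of Flt3, a cytokine receptor of dendritic cell progenitors, had ratios of 7.29 and 5.62. The remaining 4 included a peak over an exon of the dipeptidyl peptidase gene Dpp4 (4.05 and 4.18). A peak in an intron of the retinoic acid receptor gene Rarb (3.19 and 4.56) was also among them. The others lay 174 kb from decorin (Dcn, 3.33 and 5.28) and 193 kb from Il12b, a cytokine subunit (3.96 and 3.38). None of the 333 tested peaks of the 19 alveolar macrophage identity genes (such as Pparg, Marco and Car4), of the 55 of the AhR partners and chaperones, of the 97 of the macrophage markers or of those of the neutrophil and lymphocyte markers was AhR-dependent by the rule. Since only 0.749% of all peaks considered were AhR-dependent, lists of these sizes would hold few or none at that share. Nothing is therefore read from which lists held such peaks and which did not.

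For the peaks of these lists, the genotypes were compared by edgeR's quasi-likelihood test over 174193 peaks, with a differentially accessible region (DAR) taken as an adjusted p up to 0.05 and a fold of at least 1.5. Over all peaks 12.6% were lower and 9.95% higher in AhR-deficient BMDMs unstimulated, and 13.1% lower and 13.4% higher with LPS. Of 198 peaks of the AhR target genes, 30 were lower and 21 higher unstimulated and 25 lower and 23 higher with LPS (median log2 difference 0.07). Of the 333 alveolar identity peaks, 17 were lower and 79 higher unstimulated and 15 against 49 with LPS, with medians of 0.28 and 0.14. The 317 peaks of the eicosanoid synthesis genes counted 41 lower and 35 higher, and 37 lower and 70 higher with LPS. Within the retinoid list of 288 peaks these numbers were 49, 35, 53 and 45, among 124 tryptophan and kynurenine peaks 15, 12, 29 and 16, among 222 peaks of LPS-induced genes 21, 22, 21 and 49, and among the 55 of the AhR partners 2, 8, 2 and 11. Most lists thus held DARs in both directions, and these counts include the AhR-dependent peaks of each list. Of the cell type lists, the mast cell and basophil genes had 27 of 90 peaks lower and 5 higher unstimulated and 24 and 14 with LPS. The dendritic genes had 14 lower and 10 higher of 79, and 21 and 8 with LPS, and the macrophage genes 10 and 16 of 97, and 13 and 8. Neutrophil genes had 8 lower and 1 higher of 36 unstimulated and 6 lower with LPS, lymphocyte genes 9 and 2 of 26 unstimulated and 7 lower with LPS, fibroblast genes 8 and 10 of 84, and 9 and 23, and genes of innate lymphoid and NK cells, a list added later, 20 and 6 of 129, and 28 and 17.

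The rule did not use the change with LPS itself, but it used the mean levels of all groups from which that change is made. The requirement of at least 1 CPM in WT in both treatments kept out peaks that LPS closed or opened fully. The ratio required with LPS kept out peaks whose AhR-KO level rose without a matching rise in WT. The shares below, in AhR-KO above all, are therefore partly set by the rule, and all peaks beside them were not chosen this way. In WT, accessibility of the AhR-dependent peaks fell with LPS more often than it rose: 523 were lower (39.5%), where 21.6% of all peaks were, and 214 were higher (16.2%), where 25.4% of all peaks were. Their median log2 change was -0.32, beside -0.01 over all peaks. In AhR-deficient BMDMs, 228 were lower with LPS (17.2%, beside 21.5% of all peaks) and 115 higher (8.69%, beside 27.3%), with a median log2 change of -0.16 beside 0.05. The standard error of a log2 change was larger at these peaks than elsewhere, with medians of 0.217 in WT and 0.340 in AhR-KO beside 0.170 and 0.168, so fewer calls were within reach in AhR-KO. How the lower share in AhR-KO compared with all peaks depended on the fit. With the replicate number as a block within genotype, 300 were lower (22.7%, beside 21.8%) and 173 higher. In a fit of the 12 AhR-KO libraries alone, which tested 888 of the peaks, 270 were lower (30.4%, beside 23.2%) and 120 higher.

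Both genotypes were called lower at 193 peaks and higher at 81. WT alone was called lower at 329 and higher at 132, AhR-KO alone lower at 34 and higher at 33, and 520 peaks were called in neither. Whether the response to LPS differed between genotypes was not tested, since that difference is made of the contrasts the rule used. At 2 peaks the calls went in opposite directions: near Nufip1 (from 76206652) log2 changes were -0.67 in WT and 1.24 in AhR-KO, and in an intron of St6galnac5 0.87 and -1.21.

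**Figure D3:**
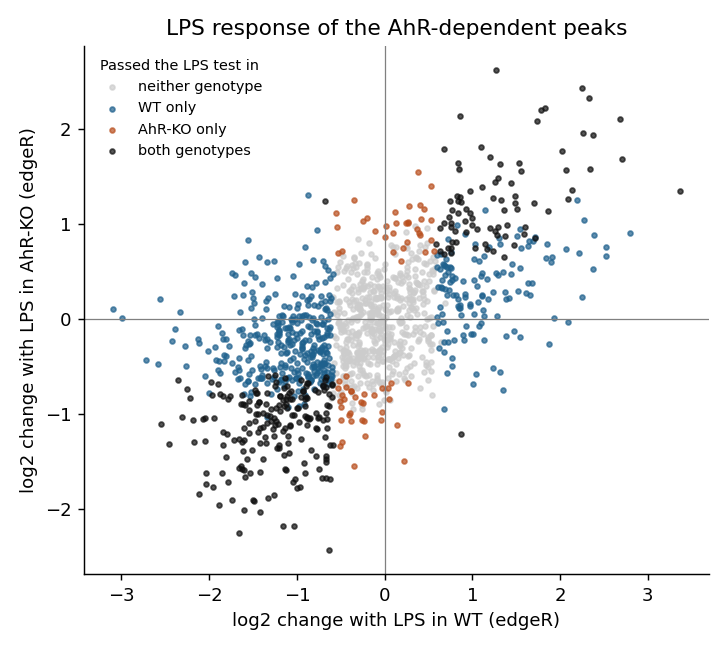
Log2 change with LPS at the AhR-dependent peaks, WT on the x axis and AhR-KO on the y axis, 1 point per peak, coloured by the genotype in which the test was passed. Most peaks lie left of 0 on the x axis, with 523 called lower and 214 higher in WT.

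Among the peaks that rose most clearly with LPS in WT (edgeR's quasi-likelihood test, Benjamini-Hochberg adjusted p), the Plscr2 peak rose by a log2 change of 1.74 (SE 0.13, adjusted p = 8.92e-13) and did so in AhR-KO by 2.08 (SE 0.16, adjusted p = 1.09e-12). Its level thus rose with LPS in both genotypes while AhR-KO remained at 8.38 CPM ± 2.05 against 26.7 ± 4.60 in WT. A peak in Abi3bp, nearest to the TSS of Tfg, rose from a WT range of 1.05 to 2.32 CPM to 7.05 to 25.3 (log2 change 3.37, SE 0.32, adjusted p = 2.85e-09). In AhR-KO the same peak went from 0.271 to 0.581 CPM to 0.483 to 1.79 (1.35, SE 0.55, adjusted p = 0.0347), a call that was lost when any of 6 libraries was left out. The intronic Ahrr peak from 74288783 rose in WT by 1.23 (SE 0.15, adjusted p = 2.78e-09), and its AhR-KO change was 0.28 (SE 0.25, adjusted p = 0.324). At the Ahrr promoter itself the WT change was 0.04 (adjusted p = 0.693), and the AhR-KO change of -0.50 (SE 0.12, adjusted p = 0.00031) was smaller than 1.5-fold. Peaks near Otulin, a deubiquitinase of linear ubiquitin chains, and in Tbc1d22a rose in WT by 2.38 and 1.52, and the AhR-KO values were 0.88 (adjusted p = 0.0623) and 1.15 (adjusted p = 7.25e-06).

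Among the peaks that fell most clearly in WT, the peak near Rasl11b, a small GTPase-like protein, went from 3.75 to 13.1 CPM (median 10.5) to 0.936 to 1.59 (median 1.16), a log2 change of -3.00 (SE 0.20, adjusted p = 2.68e-14). In AhR-KO it stayed between 0.202 and 0.447 CPM in both treatments, and its ratio of WT to AhR-KO went from 27.9 to 3.58. Peaks near Col9a1 (-2.73), in Plekha7 (-2.31) and near Itprid2 (-2.22), and a chromosome 18 peak in Ctdp1 (-2.46), behaved alike in WT, with AhR-KO changes of -0.43, -1.03, -0.83 and -1.31. The Col9a1 value in AhR-KO missed the threshold (adjusted p = 0.206). The first Hpgds peak fell in WT by 1.42 on the log2 scale (SE 0.16, adjusted p = 5.83e-10), with an AhR-KO change of -0.49 (adjusted p = 0.0819), while the second rose by 0.99 in both genotypes (adjusted p = 2.93e-05 and 0.0035). The Emp1 peak also fell in WT (-1.09, SE 0.24, adjusted p = 0.000371), and the Kcnc4 peak rose (1.72, SE 0.34, adjusted p = 9.15e-05).

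In AhR-deficient BMDMs the clearest rises other than Plscr2 lay near the lymphocyte and myeloid receptor gene Slamf1 (2.62, SE 0.36, adjusted p = 1.35e-07), in the matrix protein gene Mfap5 (2.43), in the ion exchanger gene Slc24a3 (1.38) and in Cdkl3 (1.64). The clearest falls lay in Nceh1, a cholesteryl ester hydrolase gene (-2.25, SE 0.22, adjusted p = 4.42e-11), in Dync1li2 (-1.62), in the netrin receptor gene Unc5b (-1.96), in Efl1 (-2.18) and near Stt3b (-1.78). All 9 passed in the same direction in WT. At the Slamf1 peak the AhR-KO range went from 0.135 to 0.266 CPM to 0.925 to 1.52 with LPS, and the WT range from 0.937 to 2.06 to 1.59 to 5.78. At the Nceh1 peak AhR-KO went from 2.43 to 3.41 CPM to 0.524 to 0.684, and WT from 6.91 to 17.01 to 2.43 to 4.75. Of the remaining calls, those of the Clnk promoter in WT (-0.62, adjusted p = 0.022) and of the Kynu intron in AhR-KO (0.90, adjusted p = 0.0418) lay near the thresholds. The Clnk call was lost when WT LPS replicate 3 or 5 or WT unstimulated replicate 1 or 2 was left out. The Kynu call was lost when any 1 of 8 libraries was left out.

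By position, 52.7% of the AhR-dependent peaks lay in introns, 42.5% between genes, 3.25% over exons and 1.51% over a promoter, where these shares were 47.4%, 41.8%, 3.47% and 7.33% of all peaks. The median distance to the nearest protein-coding TSS was 33.5 kb, beside 26.3 kb for all peaks. Their median width was 574 bases beside 549, their median GC content 47.3% beside 46.7%, and their mean number of CpG sites in the central 300 bases 3.20 beside 4.68. Every autosome held some, from 0.567% of its peaks on chromosome 2 to 0.993% on chromosome 9.

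The 1324 peaks were spread over 1062 nearest genes, 884 of which had 1 such peak, 118 had 2 and 60 had 3 or more. With a gap of at most 50 kb between neighbours, 967 stood alone, 116 pairs formed and 125 lay in 37 runs of 3 or more. The longest run held 7 at Syt9, among 10 peaks over 97.4 kb of chromosome 7 from its promoter into the gene. Runs of 5 lay near Clnk, near Tmem121 and at Uroc1 and Zxdc, the last around the Uroc1 peak that ranked first for loss. At Uroc1, 3 of the 5 peaks nearest to its TSS were AhR-dependent, and at Tspan8 5 of 14.

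Other peaks close to an AhR-dependent peak were more often lower in AhR-deficient cells than the background given above. Within 5 kb lay 1214 tested peaks that did not meet the rule, of which 419 (34.5%) were lower DARs and 48 higher unstimulated, and 443 (36.5%) and 52 with LPS. Lower DARs made up 23.5% and 25.3% at 5 to 20 kb and 16.2% and 17.7% at 20 to 50 kb, and 10.6% and 10.6% beyond 500 kb. The share of higher DARs ran the other way unstimulated, from 3.95% within 5 kb to 10.4% beyond 500 kb. Peaks just short of the rule are among these neighbours.

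The AhR core, searched as GCGTG on both strands in the central 300 bases, was no more frequent than elsewhere. It was held by 184 AhR-dependent peaks (13.9%, 95% Wilson interval 12.1 to 15.9) beside 16.2% of all peaks. Away from promoters, where CpG-rich sequence is rarer, the shares were 13.6% and 13.8%. The longer form TNGCGTG, which contains the core, was held by 2.79% beside 2.88%, and the core was found in 25.7% beside 29.4% when the whole peak was read. The full form TTGCGTG was held by 0.378% beside 0.774%, in the central 300 bases. For the core in that window, the share among the 80 peaks of the opposite rule was 11.2%. Among the 45 peaks that met the same rule in the left-out region around Ahr it was 24.4% (11 peaks, 95% Wilson interval 14.2 to 38.7). The 52 peaks with at least a 10-fold ratio in both treatments held it in 19.2%, that is 10 peaks, and those with smaller ratios of 3 to 4, 4 to 6 and 6 to 10 in 13.3%, 14.9% and 12.2%.

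The RUNX motif TGTGGTTT was held by 128 AhR-dependent peaks (9.67%, 95% Wilson interval 8.19 to 11.4) beside 4.15% of all peaks, and by 9.82% beside 4.40% away from promoters. It lay near peak centres, with 2.27 matches per 100 peaks and 50 bases in the central 100 bases beside 0.397 in the flanks beyond 800 bases. For other peaks these numbers were 0.832 and 0.384. AhR cores were no denser at the centres of AhR-dependent peaks than in their flanks (2.49 and 2.57), whereas in other peaks they were (3.51 and 2.75). When all 2080 words of 6 letters were counted without choosing a motif, those with the largest ratio of shares were GACCAC (26.96% beside 13.2%), AACCAC (40.3% beside 20.99%) and ACCACA (51.8% beside 27.5%). The last 2 overlap the RUNX motif as it reads on the other strand.

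Of the other motifs, some were more and some less frequent. The STAT spacing TTCNNNGAA was held by 16.2% beside 11.005%, the PU.1 motif GAGGAAGT by 9.97% beside 7.33% and the PPAR and RXR motif AGGTCANAG by 4.08% beside 2.64%. The AP-1 motif TGANTCA stood at 13.2% beside 17.9% and the SP and KLF motif GGGCGG, which is common at promoters, at 3.10% beside 8.85%. Shares for C/EBP (3.32% beside 2.73%), interferon response elements (11.9% beside 10.8%), NF-kB (1.74% beside 1.75%) and NRF2 (44.0% beside 42.3%) lay closer together. Peaks with and without an AhR core had like median ratios, 5.31 and 5.11 unstimulated and 4.77 and 4.69 with LPS. Peaks with a PU.1 motif had a median log2 change with LPS in WT of -0.67, and those without it of -0.29. A match shows letters in a window, and no match says nothing about binding.

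**Figure D4:**
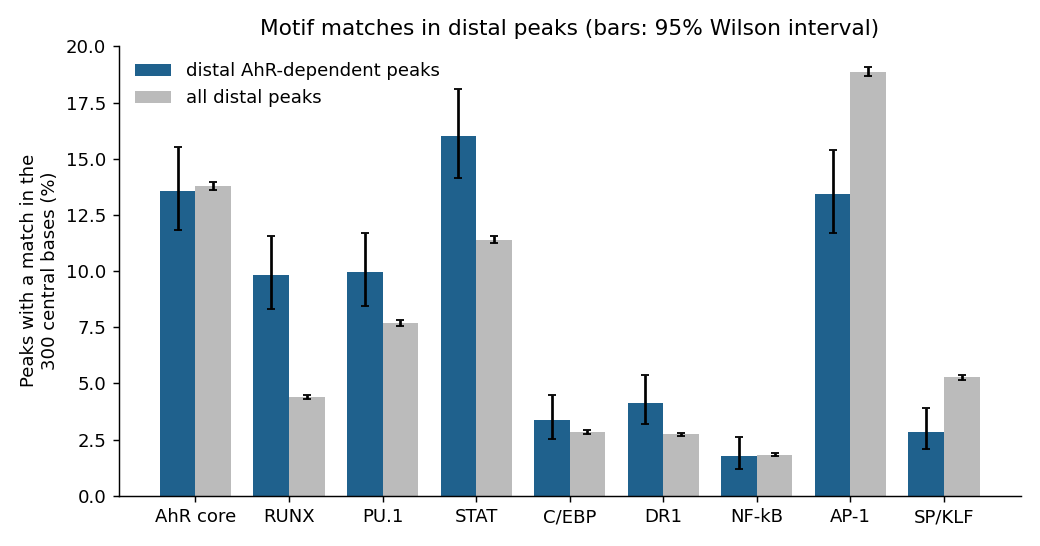
Percent of AhR-dependent peaks and of all peaks away from promoters that hold each motif in the central 300 bases, with 95% Wilson intervals that cover counting error only. The RUNX motif stands at 9.82% beside 4.40%, and the AhR core at 13.6% beside 13.8%.

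Genes of the RUNX family, added to the lists after these values had been seen, had strong start sites in every library. The summed level of the TSS peaks of Runx1, Runx2, Runx3 and Cbfb was 187.7 to 211.7 CPM in WT and 182.8 to 221.2 in AhR-KO unstimulated, and 169.3 to 189.8 and 138.7 to 168.1 with LPS. The sums overlapped between genotypes unstimulated and did not with LPS, where no TSS peak of the 4 genes was a DAR (edgeR log2 differences of -0.09, -0.34, -0.11 and -0.23 in that order). Of their 256 tested peaks 24 were lower and 32 higher unstimulated, and 26 and 48 with LPS. Among the 256, 2 were AhR-dependent, both assigned to Runx2, where 0.749% of all peaks considered were.

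Markers of some other cell types moved with the AhR-dependent peaks from library to library, and those of others did not. The culture can hold dendritic cells, since GM-CSF is also used to grow them, and 4 of the 6 dendritic markers (Zbtb46, Flt3, Ccr7, Dpp4) had a TSS peak, while Xcr1 and Clec9a had none. Their summed level was 31.98 to 45.8 CPM in WT unstimulated, 33.6 to 39.9 in AhR-KO unstimulated, 33.4 to 54.8 in WT with LPS and 25.3 to 32.997 in AhR-KO with LPS. Across the 15 pairs of libraries in a group, the library with the higher dendritic sum also had the higher sum over the AhR-dependent peaks in 14 pairs of WT unstimulated, 15 of WT with LPS, 10 of AhR-KO unstimulated and 12 of AhR-KO with LPS. WT unstimulated replicate 5 had the lowest dendritic sum of its group (31.98 CPM) and the lowest sum over the AhR-dependent peaks (3048 CPM). Part of the dendritic sum is Flt3, whose TSS peak was lower in AhR-KO by 1.16 and 1.29 on the log2 scale, whereas that of Zbtb46, a factor of conventional dendritic cells, differed by 0.21 and -0.19.

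**Figure D5:**
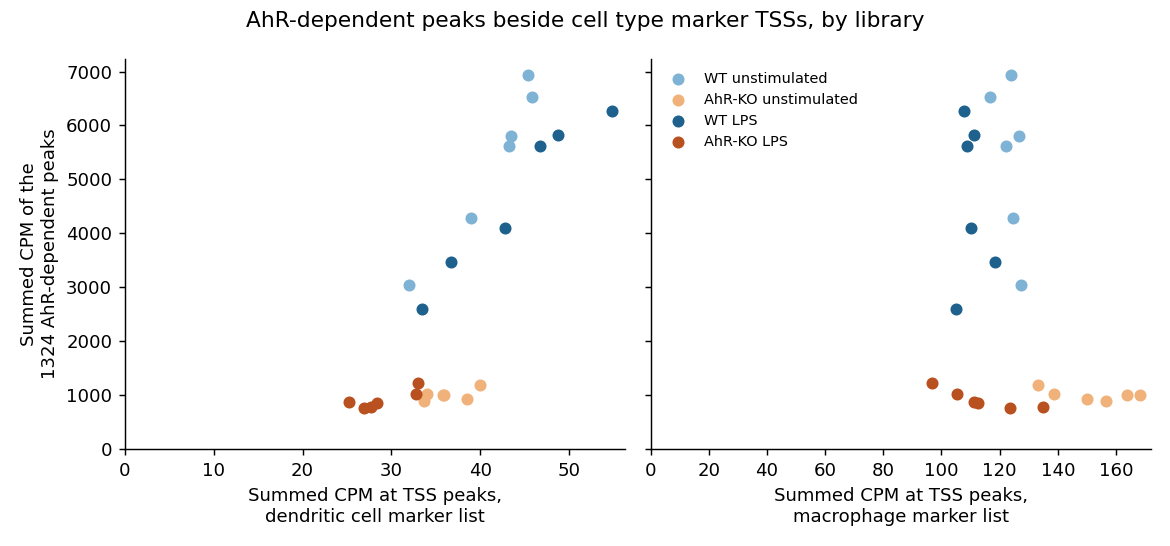
Summed CPM of the AhR-dependent peaks against the summed CPM of the TSS peaks of dendritic cell markers (left) and macrophage markers (right), 1 point per library and colour by group, on linear axes from 0. Within WT groups the libraries with more AhR-dependent signal also had more dendritic marker signal, and AhR-KO libraries lay at 772 to 1218 CPM throughout.

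Mast cell and basophil markers, of which Kit, Gata2 and Hdc had a TSS peak and Cpa3, Ms4a2 and Mcpt8 had none, summed to 20.97 to 26.5 CPM in WT and 14.4 to 17.2 in AhR-KO unstimulated, and to 28.04 to 35.5 and 19.7 to 24.8 with LPS. The order of their sums matched that of the AhR-dependent peaks in 12 of 15 pairs in WT unstimulated, 13 in WT with LPS, 8 in AhR-KO unstimulated and 10 in AhR-KO with LPS. Part of the mast cell and basophil sum is Kit, which also had 2 AhR-dependent peaks. The Kit TSS peak stood at 11.04 CPM ± 1.24 in WT and 4.76 ± 0.536 in AhR-KO unstimulated (SD, n = 6). Hdc stood at 3.43 ± 0.407 and 3.32 ± 0.385 unstimulated, so the markers of this list did not all fall alike. The macrophage markers, all 6 with a TSS peak, summed to 116.6 to 127.3 CPM in WT and 133.3 to 168.3 in AhR-KO unstimulated, and to 104.98 to 118.5 and 96.9 to 134.8 with LPS. The order of their sums matched that of the AhR-dependent peaks in 4, 7, 4 and 1 of 15 pairs, with the groups in the same sequence. Neutrophil markers (3 of 6 with a TSS peak) and fibroblast markers (3 of 5) lay between 17.1 and 30.9 CPM and between 18.3 and 27.1 CPM in all libraries, and their order matched in 4, 1, 5 and 2 pairs for the former and in 2, 1, 8 and 9 for the latter, so that within WT both ran mostly opposite to the AhR-dependent peaks. None of the 6 lymphocyte markers had a TSS peak. The part that differences in cell makeup have in the AhR-dependent peaks was not tested.

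At 1 place the AhR-KO libraries did not vary like the rest. In an intron of Arl15, a small GTPase gene, 4 consecutive peaks over 24.3 kb of chromosome 13, 2 of them AhR-dependent (from 113828316 and 113830930), held a summed count of 0 in AhR-KO unstimulated replicates 1 to 4. With LPS the same 4 replicate numbers held 4 counts at the first of these peaks and 0 at the others. At the first peak AhR-KO replicate 5 stood at 7.12 CPM unstimulated and 20.3 with LPS, and replicate 6 at 3.25 and 10.6, while WT ranged from 10.4 to 14.8 and from 19.7 to 24.97. The nearest peak on the left, from 113821382, was counted in those libraries (a sum of 90 over replicates 1 to 4 unstimulated). At the peak from 113843710, which did not meet the rule, AhR-KO replicate 5 stood at 7.53 CPM unstimulated and 10.05 with LPS. The highest WT library stood at 6.84 and 8.05 CPM there. Replicate 6 reached 55.2% and 72.8% of the WT mean at that peak. The 2 AhR-dependent peaks met the rule on means that include the counts of 0. No other AhR-dependent peak had a count of 0 in 4 or more AhR-KO libraries of a group. Whether the DNA of the animals was changed at this place, or accessibility was lost, was not tested. The pattern followed the replicate number in both treatments, whereas the main tests of LPS were made without pairing by that number.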

How the data were processed

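The authors ran the nf-core atacseq pipeline on mm10 which trims, aligns and filters reads, and merged the broad peaks that MACS2 called in each library into a consensus set. bcl2fastq 2.20.0 is named in the submitters' processing notes. The deposited table held raw counts of read pairs per consensus peak from featureCounts, and all 24 columns matched 1 library by name (0 columns of other samples). The deposited peak lists, 1 per library, gave positions and the −log10 q-value of each broad peak, of which only the positions were used. Starts in the count table were 0-based (184158 of 184158 matched a list) and are printed from 1.

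CPM were computed from column totals and averaged over 6 libraries. The test was that of edgeR 4.0.16 under R 4.3.3 (filterByExpr, TMM, trended dispersion, quasi-likelihood F test, 1 fit of all 24 libraries), with Benjamini-Hochberg adjustment over 174193 peaks. DARs had an adjusted p up to 0.05 and a fold of at least 1.5. The fit was run on simulated counts with the same dispersion for every peak, lower than the spread seen at the AhR-dependent peaks. That run therefore does not check error rates at them. Alternatives used DESeq2 1.42.0, other scalings, filters, thresholds, windows and left-out libraries. The setting with a separate dispersion per peak gave the same values, because the quasi-likelihood fit uses the trend. Genes are the nearest protein-coding TSS, or the gene body for the lists, in GENCODE vM21, and sequence is RefSeq GRCm38, where 1000 of 1000 promoters compared equal. Tables were handled with Python 3.11.15, pandas 2.3.3 and scipy 1.17.1, and peaks overlapped with bedtools 2.31.1.

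Members, lists, motifs and tests were chosen with earlier results of these data known. Peaks named are the 12 with the strongest mean loss on log2(CPM + 0.1), the 8 highest in WT, the 10 highest within 1000 bases of a TSS, those of the gene lists, the 5 clearest calls per direction with LPS, runs of 3 or more within 50 kb and those beside the thresholds. Depth was 8.54 to 34.6 M counts per library. The most alike pair of libraries in a group, among 60, differed by a chi-square of 1.26 per peak (WT unstimulated replicates 3 and 5), so none was taken as a duplicate. Replicate numbers are shared between groups. Correlations of same-numbered deviations between treatments were 0.037 to 0.29 in WT and 0.0038 to 0.17 among AhR-KO libraries, not all above 0.1, and the labels tie no number to an animal, so the main tests were unpaired. The same-numbered LPS library was the most correlated for WT unstimulated replicates 1, 2, 3 and 6 and AhR-KO unstimulated replicates 1, 3 and 5. Between genotypes this held for replicates 2 and 5 unstimulated and replicate 5 with LPS. Counts at Arl15 follow the number in both treatments of AhR-KO, a hint from the data that numbers mark animals there, and the fit with the number as a block is therefore given beside the LPS counts it moved.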

Additional observations from a re-analysis of the deposited data

Results flagged for a closer look

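In 232 groups of 6 libraries at the peaks named with their values, the highest or lowest library was tested against Dixon's critical value, which chance passes in about 1 group in 20. It was passed in 14 groups. AhR-KO replicate 3 was the highest library at the Tspan8 peak with LPS (0.626 CPM), at the Kcnc4 peak unstimulated (0.176 CPM), at the Tent5c peak unstimulated (6.83 CPM), at the Ror1 peak unstimulated (9.47 CPM), at the peak in Kynu nearest to Arhgap15 unstimulated (2.73 CPM) and with LPS (5.54 CPM), and at the Hpgds peak from 65190379 unstimulated (0.661 CPM) and with LPS (1.48 CPM). The sums over AhR-dependent peaks and over dendritic cell markers were also highest in replicate 3 of both AhR-KO groups.

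AhR-KO unstimulated replicate 5 was the highest at the Pole peak (0.812 CPM) and replicate 1 at the Tbc1d22a peak (1.28 CPM). With LPS, AhR-KO replicate 4 was the highest at the Flt3 peak nearest to Urad (0.718 CPM), and replicate 5 the lowest at the Rarb peak (0.0804 CPM). WT unstimulated replicate 5, the library with the fewest counts, was the lowest at the Nabp1 peak (12.1 CPM) and at the Kit peak from 75673257 (0.351 CPM).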

How the results depend on the processing

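No LPS change of a named peak that was called, in the main fit or in the alternative, changed sign. Some uncalled changes did when 1 library was left out, such as Uroc1 in WT (-0.13, with a range of -0.27 to 0.02). The share of peaks lower with LPS in AhR-KO was below that of all peaks in the main fit. It was above that of all peaks with the block (22.7% beside 21.8%) and in the fit of 12 libraries (30.4% of 888 beside 23.2%). By DESeq2 the 2 shares were near each other (21.75% beside 21.9%). The rule found 1293 peaks on TMM totals, 1214 with DESeq2 size factors and 1440 on medians. It found 3472 at a ratio of at least 2, 675 at a ratio of at least 4 and 707 at a WT level of at least 2 CPM. Leaving out 1 library gave 1209 to 1453. In WT with LPS, 214 higher and 523 lower became 121 and 307 at a fold of at least 2, and 103 and 228 among the 707 peaks at 2 CPM or more, an alternative added after the data were seen, as were the distal shares of the core and the rule without WT unstimulated replicate 5. In AhR-KO, 115 and 228 became 69 and 129, and 66 and 124. Leaving out 1 library gave 179 (without WT LPS replicate 6) to 267 (without WT LPS replicate 3) higher and 452 to 564 lower in WT, and 86 to 136 higher and 199 to 256 lower in AhR-KO. The replicate number as a block within genotype gave 215 higher and 525 lower for WT, and 173 higher and 300 lower for AhR-KO. The causes were not tested. The share with an AhR core was 25.7% in whole peaks, 7.70% in 150 bases and 2.79% for TNGCGTG. The median distance was 15687.5 bases with TSSs of all genes, where it was 12563 for all peaks. Of 882 alternatives for 112 single values, 852 kept their call, 18 lost one and 12 gained one. At a median of 0.550 and 0.492 CPM in AhR-KO, depth limits what can be called there.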
